A study of Mus musculus with 20 samples.

Results

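The 10 genes examined here encode the adenosine receptors of the mouse (Adora1, Adora2a, Adora2b and Adora3) and the proteins that form, clear or carry adenosine (Entpd1, Nt5e, Ada, Dpp4, Adk and Slc29a1). They were listed by symbol and matched to the count table by Ensembl identifier. All 10 were among its 35226 genes, and 9 of them were among the 16665 genes with enough counts to be tested. Adora1 had too few counts for the test and is described by its counts.

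RNA was sequenced from 20 subcutaneous tumors of LLC1, an established Lewis lung carcinoma line from C57BL mice, grown in young adult male C57Bl6/J mice. Each of 4 groups held 5 tumors: vehicle (the solvents alone), KW6002 (istradefylline, a selective antagonist of the A2A receptor), cisplatin (a platinum drug that crosslinks DNA), and cotreatment with cisplatin and KW6002. No group carried an engineered allele, every tumor came from the same cell line and gave 1 library, and the sources used here did not say which tumors shared a cage or day. The comparisons ask whether the drugs, alone or together, changed the adenosine genes of the tumor, which bears on a study of whether an adenosine receptor antagonist leaves the action of cisplatin on tumors intact. Libraries held 28.4 to 41 M counted reads.

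Adenosine outside the cell arises mainly from ATP and ADP that are released by stressed or dying cells. CD39, the product of Entpd1, splits ATP and ADP to AMP, and CD73, the product of Nt5e, splits AMP to adenosine. The receptors A1 and A3 couple mainly to inhibitory G proteins, while A2A and A2B couple to stimulatory G proteins and raise cyclic AMP. In tumors this pathway is known for restraining T cells, natural killer cells and myeloid cells through A2A and A2B. Adenosine is removed by adenosine deaminase (Ada), which can be held on the cell surface by CD26 (Dpp4), and by adenosine kinase (Adk) after uptake through ENT1 (Slc29a1).

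The tumors contained many cell types, so a lower level of an RNA can mean fewer cells of one type or less RNA per cell, and these cannot be told apart in bulk RNA. Keratins of the carcinoma cells were abundant, with Krt8 at 129 ± 8.38 CPM and Krt18 at 273 ± 10.8 CPM in vehicle tumors (CPM, counts per M counted reads, mean ± SD, n = 5), whereas Epcam was near 0 and the 2 lung epithelium markers in the table summed to at most 0.0489 CPM in any tumor. Some libraries stood apart. KW6002 tumor 1 held 44.1 CPM of summed B cell markers and 29.8 CPM of summed T and NK cell markers, against at most 1.49 and 10.4 CPM in the other 19 tumors. Values against the KW6002 group, and the interaction, are therefore also given without that tumor for the members called in any comparison. Cisplatin tumors 4 and 5 differed from tumors 1 and 2 of their group over all genes by a mean chi-square per gene of 63.6 to 90.9, where counting noise gives 1, and from tumor 3 by 40 and 43.8, against 12.4 to 23.8 among tumors 1 to 3 and 22.1 between the pair. Both were also the highest of their group in the summed markers of fibroblasts, mast cells, neutrophils, T and NK cells, and platelets. The same held for the epithelial markers, with 594 and 543 CPM against at most 520 CPM, and for the fat markers, with 1.72 and 0.689 CPM against at most 0.424 CPM. It also held, by a narrow margin, for the B cell markers, with 1.10 and 1.00 CPM against at most 0.998 CPM. For comparisons with the cisplatin group, the members called are therefore also given with both left out, an alternative chosen after the data were seen. Values under this alternative are given for part of the genes and lists.

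Per kilobase of exon, the RNA of the transporter gene Slc29a1 was the most abundant of the 10 in every group, at 30.2 ± 1.8 CPM per kb in vehicle tumors. Adora2b followed at 9.37 ± 1.5, Adk at 8.64 ± 0.839, Entpd1 at 6.96 ± 0.414, Ada at 2.79 ± 0.386 and Nt5e at 1.52 ± 0.2 CPM per kb. Dpp4 was at 0.509 ± 0.111, Adora2a at 0.272 ± 0.0566, Adora3 at 0.123 ± 0.0288 and Adora1 at 0.103 ± 0.221 CPM per kb. Adora2b and Adk overlapped in their ranges over vehicle tumors, as did Adora3 and Adora1, and the other neighbors in this order did not overlap. Thus the RNA of the A2B receptor was the most abundant receptor RNA, and that of A2A, the target of KW6002, was a small fraction of it. In cotreated tumors the order differed, with Adora2b in place 4 at 4.72 ± 0.835 CPM per kb, behind Adk at 7.89 ± 0.871 and overlapping Entpd1 at 4.99 ± 0.484 CPM per kb. Likewise, Adora3 stood above Adora2a after cotreatment, at 0.177 ± 0.0382 against 0.119 ± 0.0465 CPM per kb, although their ranges overlapped. Tumors given cisplatin alone also had Adk above Adora2b, at 8.86 ± 0.375 against 6.66 ± 0.814 CPM per kb, without overlap. Adora3 was above Adora2a there too, at 0.175 ± 0.0433 against 0.137 ± 0.0903 CPM per kb, with ranges that overlapped.

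**Figure D1:**
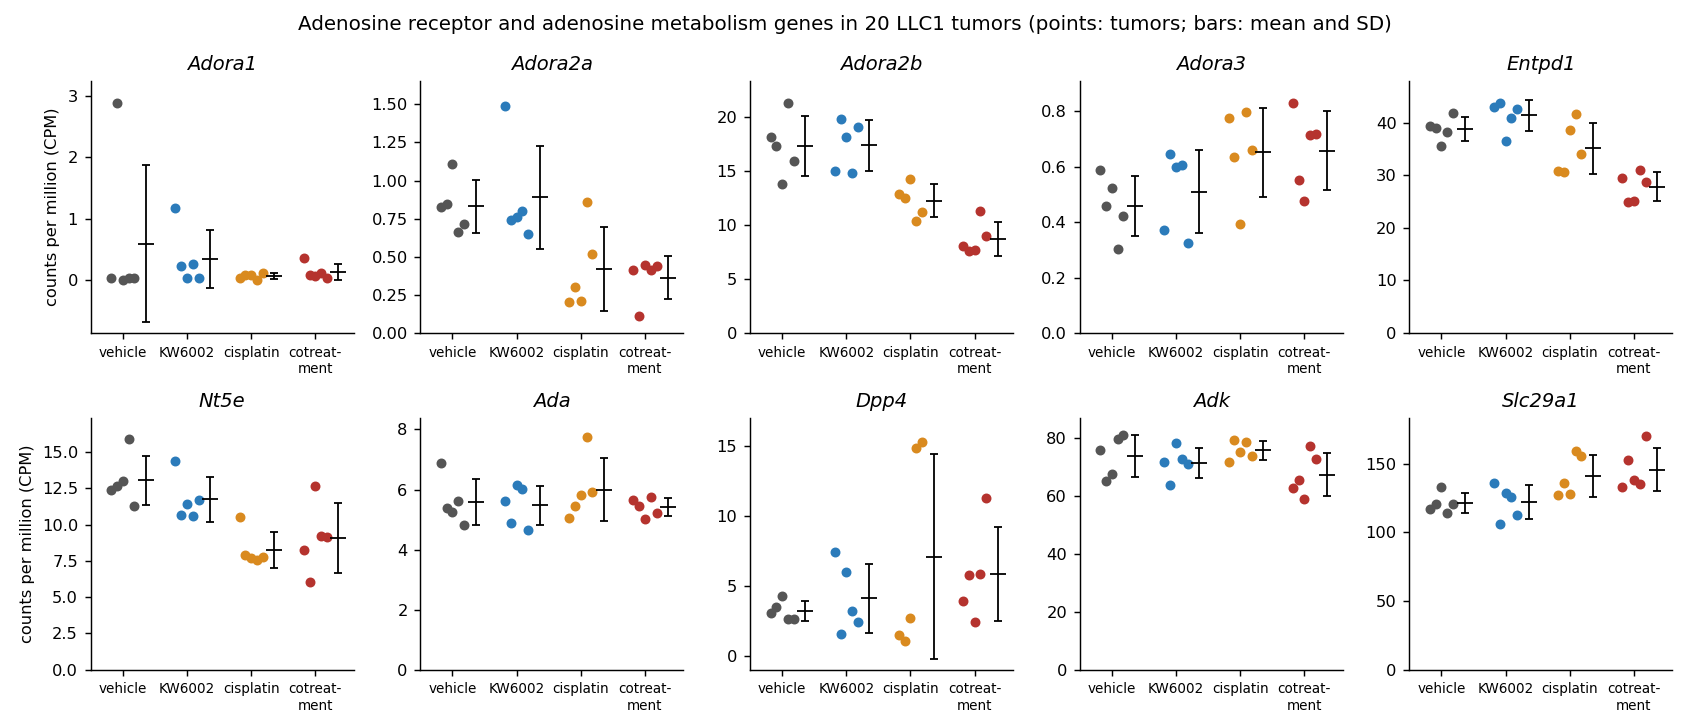
Level of each of the 10 genes in CPM (vertical axes) in the 20 tumors, with 1 point per tumor in replicate order from left to right and the mean and SD of 5 tumors beside them. Adora2b and Entpd1 were lowest in the cotreatment group, the means of Nt5e and Adora2a were lower in both groups given cisplatin than in the vehicle group, and 1 vehicle tumor held most of the Adora1 signal of its group.

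Promoter sequence is shown for Adora2b and Entpd1, the members that differed between cotreatment and cisplatin alone. RefSeq windows on GRCm38, from 250 bases before to 50 bases after an annotated start, matched 9 of the 10 members in 19 windows, the exception being Adora2a. The stretches printed are the 250 bases before the start of Adora2b at chr11:62248734-62248983 (plus strand) and before the second start of Entpd1 at chr19:40659520-40659769 (plus strand), both free of annotated exons. Capitals mark the GC box, GGGCGG or its reverse complement CCGCCC, in Adora2b, and the core of the cyclic AMP response element, TGACG or its reverse complement CGTCA, in Entpd1.
Adora2b: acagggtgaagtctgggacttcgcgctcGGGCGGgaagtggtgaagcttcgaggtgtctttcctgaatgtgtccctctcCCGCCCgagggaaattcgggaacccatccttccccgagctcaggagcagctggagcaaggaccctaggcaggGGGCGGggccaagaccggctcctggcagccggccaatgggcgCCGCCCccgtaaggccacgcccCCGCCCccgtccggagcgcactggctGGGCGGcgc
Entpd1: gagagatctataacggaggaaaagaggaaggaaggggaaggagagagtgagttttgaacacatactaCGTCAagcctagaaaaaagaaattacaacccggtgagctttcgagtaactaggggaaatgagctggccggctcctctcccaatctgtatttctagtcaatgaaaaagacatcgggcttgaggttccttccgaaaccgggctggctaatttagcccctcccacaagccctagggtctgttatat
The motifs searched, on both strands, were the GC box, the core TGACG and its full palindrome TGACGTCA, which contains that core, the hypoxia core ACGTG and the TATA box TATAAA. The Adora2b window held 6 GC boxes, none overlapping another motif, and 70% G and C. Each of the 2 Entpd1 windows held 1 TGACG core and no GC box. Nt5e, at chr9:88327359-88327658 (plus strand), held 4 GC boxes, some of which shared bases, and 71% G and C. Of all 32851 windows in the table, 35.7% held a GC box, 20.8% a TGACG core, 1.79% the full palindrome, 19.6% a hypoxia core and 13.6% a TATA box. None of the Adora2b, Entpd1 and Nt5e windows held the full palindrome, the hypoxia core or the TATA box, which says only that these letters are not in these windows.

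Calls required 2 things of edgeR's quasi-likelihood test, a Benjamini-Hochberg adjusted P value under 0.05 over all 16665 genes and a log2 fold change of 0.32 or more in size. After KW6002 alone, 0 of the 9 tested members were called and 0 had an unadjusted P under 0.05, where 0% of all genes were called and 339 of them had an unadjusted P under 0.05. DESeq2 and limma voom also called 0 members and 0 genes there. After cisplatin, 2 members were lowered (Adora2b and Nt5e) and 0 raised, against 4.57% of all genes lowered and 6.01% raised. After cotreatment compared with vehicle, 4 members were lowered (Adora2a, Adora2b, Entpd1 and Nt5e) and 0 raised, against 10.4% and 13.1% of all genes. Cotreated tumors differed from cisplatin tumors in 2 members (Adora2b and Entpd1), both lower, where 1.71% of all genes were lower and 2.29% higher. That share, 4.0% over both directions, was 1.72% without cotreated tumor 2, 1.75% without cotreated tumor 3, 2.36% without cisplatin tumor 3 and 6.03% without cotreated tumor 4. With cisplatin tumors 4 and 5 left out, Adora2a and Nt5e were the 2 members lowered after cisplatin (9.35% of all genes called), and Adora2b was the 1 member lower after cotreatment than after cisplatin (3.42%). They differed from KW6002 tumors in 3 members (Adora2a, Adora2b and Entpd1), all lower, against 10.7% and 12.6% of all genes. The interaction (cotreatment minus cisplatin, less KW6002 minus vehicle, on the log2 scale) called 0 members, against 0.0660% of all genes, while 2 members and 2034 of all genes had an unadjusted P under 0.05. DESeq2 called 1 member there, Entpd1, and 258 of all genes (1.55%), against 11 genes in edgeR. With cisplatin tumors 4 and 5 left out, edgeR called 0 members in the interaction and 57 of all genes (0.335%). The median log2 fold change of the 9 was 0.01, 0.04, -0.13, -0.17, -0.08 and -0.14 in these 6 comparisons in the order given, and that of all genes was between -0.02 and 0.00. Comparisons that share a group are not independent of each other. In a stricter test against the fold limit itself, Adora2b after cotreatment kept its call against vehicle. The other calls against vehicle, and both calls against cisplatin, were lost. The 3 calls of cotreatment against KW6002 (Adora2a, Adora2b and Entpd1) were kept in that test (10.6% of all genes called).

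**Figure D2:**
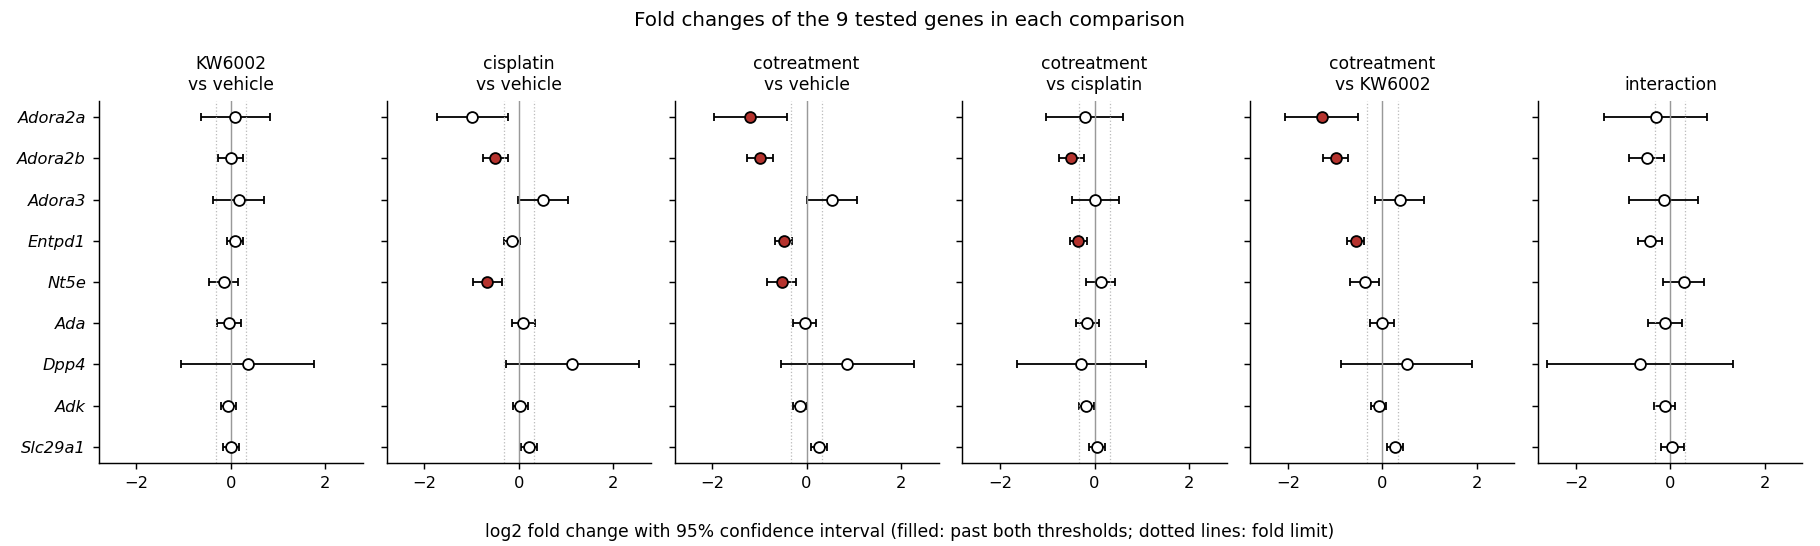
Log2 fold change (horizontal axes) with its 95% confidence interval for the 9 tested genes in the 6 comparisons, with filled points for genes past both thresholds and dotted lines at the fold limit of 0.32. In the last panel the value is the difference of 2 log2 fold changes. Filled points lie to the left of 0 in all panels that have any, and Dpp4 has the widest intervals.

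Adora2b, on chromosome 11, encodes the A2B receptor, which has a lower affinity for adenosine than A2A and responds when adenosine is plentiful. Its level was 18.1, 17.3, 13.8, 21.3 and 15.9 CPM in vehicle tumors 1 to 5 and 15, 19.8, 18.1, 14.8 and 19.1 CPM in KW6002 tumors 1 to 5. It was 12.9, 12.5, 14.3, 10.4 and 11.2 CPM in cisplatin tumors and 8.10, 7.58, 7.64, 11.3 and 8.95 CPM in cotreated tumors. All cotreated tumors lay below all tumors of the vehicle and KW6002 groups, while the cisplatin group lay between and overlapped both the lowest vehicle tumor and the highest cotreated one. The means were 17.3 ± 2.76, 17.4 ± 2.30, 12.3 ± 1.5 and 8.71 ± 1.54 CPM in the order vehicle, KW6002, cisplatin and cotreatment. KW6002 alone gave a log2 fold change of 0.00 for Adora2b (95% interval -0.26 to 0.27), and 0.05 without KW6002 tumor 1. Adora2b fell by 0.49 on the log2 scale after cisplatin (SE 0.127, adjusted P = 0.0112) and by 0.99 after cotreatment (SE 0.129, adjusted P = 7.69e-06). With cisplatin tumors 4 and 5, the lowest of their group, left out, the value after cisplatin was -0.37 (adjusted P = 0.0904) and was not called. Cotreated tumors were lower than KW6002 tumors by a log2 fold change of -0.99 (adjusted P = 7.61e-06, and -1.04 with adjusted P = 1.42e-05 without KW6002 tumor 1).

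Relative to cisplatin alone, cotreatment lowered Adora2b by a further log2 fold change of -0.49 (SE 0.128, 95% interval -0.76 to -0.23, adjusted P = 0.0249). This call was lost when these groups were fitted without the others, and when any of cisplatin tumor 3 or cotreated tumors 1, 2 or 3 was left out, with log2 fold changes of -0.60 to -0.43 and a largest adjusted P of 0.0822 over the 20 fits that each left out 1 tumor. With cisplatin tumors 4 and 5 both left out it was called (-0.60, adjusted P = 0.0184). The interaction value was -0.50 (SE 0.180, 95% interval -0.87 to -0.13, adjusted P = 0.250, and -0.55 with adjusted P = 0.279 without KW6002 tumor 1), so an effect of KW6002 that depends on cisplatin was not called for this gene.

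The labels carry library codes that fall into 2 runs, an earlier one (8 tumors) and a later one (12 tumors), and cotreated tumors were mostly in the earlier run, with 3 of 5, whereas 4 of 5 vehicle tumors were in the later run. What the codes stand for is not given in the sources used here. Within the earlier run, Adora2b averaged 12.7 CPM in 2 cisplatin tumors and 7.77 CPM in 3 cotreated tumors, which is -0.72 on the log2 scale (adjusted P = 0.0321). Within the later run it averaged 12.0 CPM in the 3 tumors given cisplatin alone and 10.1 CPM in the 2 given both drugs, which is -0.24 on the log2 scale (adjusted P = 0.579). The difference had the same sign in both runs. Of all genes, 322 of 16709 (1.93%) were called between these groups in the earlier run and 1 of 17222 (0.00581%) in the later run, so hardly any gene was called in the later run. With the run as a term in the fit the value was -0.49 (adjusted P = 0.0322). The log2 fold change of Adora2b after cisplatin was -0.49 within the later run (adjusted P = 0.0379), and after cotreatment it was -0.73 (adjusted P = 0.0156).

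Adora2a, on chromosome 10, encodes A2A, the receptor that KW6002 blocks. It was a weak gene in these tumors, with 24, 24, 34, 24 and 22 counts in vehicle tumors 1 to 5 and 48, 23, 24, 25 and 18 counts in KW6002 tumors 1 to 5. Cisplatin tumors 1 to 5 had 6, 12, 7, 28 and 18 counts, and cotreated tumors 17, 4, 13, 15 and 14 counts. In CPM the groups averaged 0.832, 0.889, 0.419 and 0.364, and every cotreated tumor was below every vehicle and KW6002 tumor, whereas the cisplatin group ranged from 0.203 to 0.859 CPM, with tumor 4 inside the vehicle range. Cotreatment gave a log2 fold change of -1.19 against vehicle (SE 0.372, adjusted P = 0.0165), and cisplatin alone one of -0.98 (SE 0.367, adjusted P = 0.0724), which was not called. It was called after cisplatin by limma voom (log2 fold change -1.14, adjusted P = 0.0374) and, in edgeR, without cisplatin tumor 4 (log2 fold change -1.39, adjusted P = 0.0137) and without cisplatin tumors 4 and 5 (-1.75, adjusted P = 0.00502). Cotreatment and cisplatin did not differ detectably at these counts (log2 fold change -0.21, 95% interval -1.02 to 0.60, and 0.57 without cisplatin tumors 4 and 5). Against KW6002 alone the log2 fold change after cotreatment was -1.29 (adjusted P = 0.00988), and it was -1.02 (adjusted P = 0.0427) without KW6002 tumor 1, the tumor with the high lymphocyte markers and the highest Adora2a of all, 1.49 CPM. Within the later run of library codes the call after cotreatment against vehicle was lost (log2 fold change -0.94, adjusted P = 0.156). The call against KW6002 was also lost in the later run (adjusted P = 0.297) and was kept in the earlier run. KW6002 alone gave 0.10 (95% interval -0.62 to 0.83), and -0.17 without its tumor 1, so neither the size nor the direction of its effect on the RNA of its own target was resolved. The interaction was -0.31 (adjusted P = 0.841), and -0.04 (adjusted P = 0.984) without that tumor.

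Adora3, on chromosome 3, encodes A3, a receptor best known from mast cells and other leukocytes. It was at 0.459 ± 0.107 CPM in vehicle, 0.511 ± 0.149 in KW6002, 0.653 ± 0.161 after cisplatin and 0.659 ± 0.142 CPM after cotreatment. The groups overlapped, and the log2 fold changes of 0.51 after cisplatin (adjusted P = 0.173) and 0.53 after cotreatment (adjusted P = 0.105) were not called. Adora3 shares 779 exon bases on the same strand with Tmigd3, which had 13 counts over all tumors. The study counted in union mode, and how reads in the shared bases were assigned was not examined. The level of Adora3 per kb, which uses all 3729 of its exon bases, may therefore be too low.

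Adora1, on chromosome 1, encodes A1, a receptor abundant in fat cells and neurons. It had 1, 82, 0, 1 and 1 counts in vehicle tumors 1 to 5 and 38, 7, 1, 8 and 1 counts in KW6002 tumors 1 to 5. Cisplatin tumors had 1, 3, 3, 0 and 4 counts, and cotreated tumors 15, 3, 2, 4 and 1 counts. Vehicle tumor 2, KW6002 tumor 1 and cotreated tumor 1 were the highest of their groups. Summed fat cell markers (Adipoq, Plin1 and Cidec) were highest of those 3 groups in the same tumors, at 59.2 CPM in vehicle tumor 2, 25.1 CPM in KW6002 tumor 1 and 9.69 CPM in cotreated tumor 1, against a group median of 0.588, 2.71 and 1.82 CPM. In the cisplatin group, where no tumor exceeded 4 Adora1 counts, the highest fat sum was 1.72 CPM in tumor 4, which had 0 Adora1 counts, while tumor 5 with 4 counts had 0.689 CPM. The part of fat tissue in the Adora1 counts was not tested. Exact permutation tests of the mean CPM, two-sided, gave P values from 0.381 to 0.984 in the 5 comparisons, with a smallest possible P of 0.00794. Adora1 also shares 1162 exon bases with Mybph on the opposite strand, which had 0 counts in vehicle tumor 2 and KW6002 tumor 1.

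**Figure D3:**
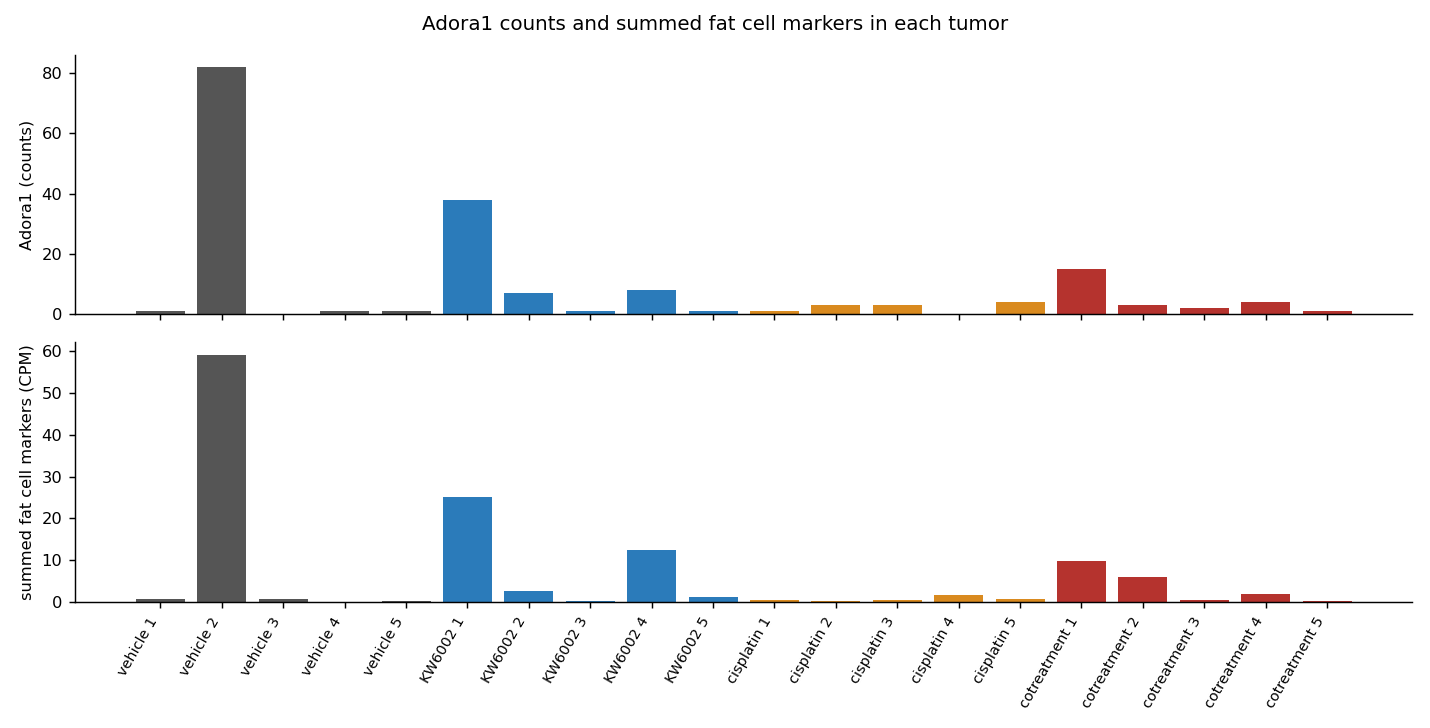
Counts of Adora1 (upper bars) and the summed level of the fat cell markers Adipoq, Plin1 and Cidec in CPM (lower bars) in each of the 20 tumors, colored by group. Vehicle tumor 2 and KW6002 tumor 1 are the highest in both panels.

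Entpd1, on chromosome 19, encodes CD39, the enzyme that starts the breakdown of ATP outside the cell. It was at 39.4, 39.1, 35.5, 38.3 and 41.9 CPM in vehicle tumors and at 43.0, 43.8, 36.6, 41 and 42.6 CPM in KW6002 tumors, in replicate order. Cisplatin tumors were at 30.8, 30.6, 38.6, 41.6 and 34.1 CPM, and cotreated tumors at 29.5, 25.0, 25.1, 31.0 and 28.7 CPM. The cotreated tumors lay below all vehicle and KW6002 tumors, and only cotreated tumor 4 lay above any cisplatin tumor. Cisplatin alone gave a log2 fold change of -0.14 (adjusted P = 0.253), which was not called. Cotreatment lowered Entpd1 by -0.48 against vehicle (SE 0.0851, adjusted P = 0.000199), by -0.57 against KW6002 (adjusted P = 3.54e-05, and -0.56 with adjusted P = 0.000152 without KW6002 tumor 1) and by -0.34 against cisplatin (SE 0.0850, adjusted P = 0.0227). Its value lay close to the fold limit in the last comparison, where the call was lost when these groups were fitted without the others, and without cisplatin tumor 3 or 4 or cotreated tumor 2 or 3 (log2 fold changes from -0.38 to -0.27 over the fits that left out 1 tumor each). It was also lost with cisplatin tumors 4 and 5 left out (-0.26, adjusted P = 0.104).

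The runs of library codes also moved with Entpd1. In the earlier run, cisplatin tumors averaged 30.7 CPM and cotreated tumors 26.5 CPM, which is -0.22 on the log2 scale (adjusted P = 0.244). In the later run they averaged 38.1 and 29.8 CPM, which is -0.35 on the log2 scale (adjusted P = 0.248). Neither run alone gave a call, and with the run as a term the log2 fold change was -0.31 (adjusted P = 0.0304), just under the fold limit. The interaction was -0.43 (SE 0.120, 95% interval -0.68 to -0.18), with an adjusted P of 0.144 in edgeR and 0.0387 in DESeq2. Without KW6002 tumor 1 the interaction was -0.41 (adjusted P = 0.239 in edgeR). KW6002 alone gave a log2 fold change of 0.09 for Entpd1 (95% interval -0.08 to 0.27), and 0.08 without that tumor.

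Nt5e, on chromosome 9, encodes CD73, the enzyme that makes adenosine from AMP on the cell surface. It was at 12.4, 12.7, 13, 15.9 and 11.3 CPM in vehicle tumors and at 14.4, 10.7, 11.4, 10.6 and 11.7 CPM in KW6002 tumors. Cisplatin tumors were at 10.5, 7.90, 7.68, 7.57 and 7.75 CPM, and cotreated tumors at 8.27, 6.03, 12.7, 9.25 and 9.14 CPM. All cisplatin tumors lay below all vehicle tumors, and of the cotreated tumors only number 3 reached the vehicle range. Nt5e fell by 0.66 on the log2 scale after cisplatin (SE 0.149, adjusted P = 0.00476) and by 0.53 after cotreatment (SE 0.149, adjusted P = 0.00857). The difference between the cisplatin groups was 0.13 (95% interval -0.18 to 0.44). Cotreatment against KW6002 gave -0.38 (adjusted P = 0.0537), which was not called. It was called in DESeq2, in limma voom, with upper quartile scaling and with the run of library codes as a term. Of the 20 fits that each left out 1 tumor, 3 called it, those without vehicle tumor 4, cisplatin tumor 1 or cotreated tumor 3. Without KW6002 tumor 1 the value against KW6002 was -0.29 (adjusted P = 0.155). KW6002 alone gave -0.15 for Nt5e (95% interval -0.46 to 0.16), and -0.23 without that tumor. The interaction was 0.28 (adjusted P = 0.617), and 0.37 (adjusted P = 0.588) without it.

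The enzymes that clear adenosine showed no called difference. Ada was at 5.59 ± 0.773, 5.47 ± 0.661, 6.0 ± 1.04 and 5.42 ± 0.306 CPM in vehicle, KW6002, cisplatin and cotreated tumors, and its log2 fold changes against vehicle were between -0.04 and 0.10. The 95% intervals of these reached from -0.29 to 0.35. Adk was at 73.7 ± 7.15, 71.3 ± 5.09, 75.6 ± 3.19 and 67.3 ± 7.42 CPM. Its largest difference in these comparisons was that between cotreatment and cisplatin, a log2 fold change of -0.17 (95% interval -0.32 to -0.01, adjusted P = 0.177).

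Dpp4, whose product CD26 is a surface peptidase, varied widely between tumors of 1 group. It was at 3.07, 3.52, 4.28, 2.61 and 2.61 CPM in vehicle tumors 1 to 5 and at 1.52, 1.07, 2.72, 14.9 and 15.3 CPM in cisplatin tumors 1 to 5. KW6002 tumors ranged from 1.58 to 7.40 CPM and cotreated tumors from 2.42 to 11.3 CPM. Cisplatin tumors 4 and 5 were thus the highest of all 20, while cisplatin tumors 1 and 2 were the lowest, and no comparison was called (log2 fold change 1.14 after cisplatin, 95% interval -0.26 to 2.55). That value lay between -0.85, without cisplatin tumors 4 and 5, and 1.77, within the later run of library codes, under the other settings, so its direction rests on these tumors. The 2 cisplatin tumors of the earlier run were at 1.07 and 1.52 CPM and the 3 of the later run at 2.72 to 15.3 CPM. Cisplatin tumors 4 and 5 are the libraries that stood apart, with the highest sums of their group in the marker lists named above. Fibroblast markers were among them, at 3880 and 3410 CPM against 2150 to 2430 CPM in tumors 1 to 3. Most of the spread of that sum lay in the collagens. Over the cisplatin group Col1a1 ranged from 43.1 to 737 CPM and Col1a2 from 59.4 to 1000 CPM. Dcn ranged from 1110 to 1390, Lum from 449 to 744 and Pdgfra from 182 to 260 CPM. The part of the code run and of the cells behind these lists in the spread of Dpp4 was not tested. Slc29a1, the gene of the nucleoside transporter ENT1, was at 121 ± 7.20, 122 ± 12.3, 141 ± 15.4 and 146 ± 15.5 CPM. Its log2 fold change was 0.27 after cotreatment against vehicle (SE 0.0825, adjusted P = 0.0154) and 0.26 against KW6002 (adjusted P = 0.0182), both past the P value threshold and below the fold limit, and 0.22 after cisplatin (adjusted P = 0.0731). Over the 20 tumors, log2 CPM of Dpp4 and Slc29a1 had a Pearson r of 0.73, and 0.81 after the group means were removed. These points share libraries and depth, and the value is a description.

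Markers of other cells moved with some of these genes. Summed endothelial markers (Pecam1, Cdh5, Kdr, Tek, Emcn and Vwf) ranged from 140 to 204 CPM in vehicle and 122 to 194 CPM in KW6002 tumors, and from 68.9 to 95.8 CPM after cisplatin and 74.1 to 111 CPM after cotreatment. Of these 6 markers, 6 were lowered after cisplatin, 5 after cotreatment against vehicle, and 0 between cotreatment and cisplatin. Nt5e, which endothelial cells express, was called in the same direction in the same comparisons of these 3. Between cotreated and KW6002 tumors 5 of the 6 markers were lowered, whereas Nt5e was not called (log2 fold change -0.38, adjusted P = 0.0537), and the part of endothelium in its level was not tested. Fibroblast markers, from another cell type known to express Nt5e, had 3 of 6 lowered after cisplatin, 2 of 6 after cotreatment and 0 between these groups. They summed to 2620 to 3200 CPM in vehicle, 2420 to 3150 in KW6002, 2150 to 3880 after cisplatin and 2540 to 3350 CPM after cotreatment, with groups that overlapped, and their part in Nt5e was not tested. Summed mast cell markers were at 23.1 to 81.1 CPM in vehicle, 54.3 to 126 in KW6002, 1.09 to 23.6 after cisplatin and 16.3 to 27.0 CPM after cotreatment, with 6 of 6 lowered after cisplatin and 2 of 6 after cotreatment against vehicle. Of these markers, 5 were lowered in cotreated against KW6002 tumors and 0 were called between cotreatment and cisplatin. The part of mast cells in the level of Adora3 was not tested.

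T and NK cell markers, whose cells are known to express Adora2a, summed to 1.95 to 7.38 CPM in vehicle, 1.39 to 8.86 CPM after cisplatin and 1.60 to 4.01 CPM after cotreatment, with 0 of 9 called against vehicle in either. Their median log2 fold change was -1.07 after cisplatin and -1.40 after cotreatment, beside -0.98 and -1.19 for Adora2a. The list did not move as 1. Every T cell marker had a lower mean than in vehicle in both groups, whereas the NK cell markers partly rose. Klrb1c averaged 0.576 CPM in vehicle, 1.00 after cisplatin and 0.726 after cotreatment, and Ncr1 0.777, 0.838 and 0.480 CPM. In KW6002 tumors the T and NK cell markers summed to 3.35 to 29.8 CPM, with the highest sum in tumor 1 and at most 10.4 CPM in the others. Of 9 markers, 6 were lowered in cotreated against KW6002 tumors (median log2 fold change -2.55), a comparison in which Adora2a was also called. The markers were not refitted without KW6002 tumor 1, so how far that tumor carries this result is not known. Cisplatin tumor 4, the highest of its group in Adora2a, was also the highest of its group in these markers, and the part of these cells in the Adora2a level was not tested. Macrophage markers, from cells known to express Entpd1 and Adora2b, summed to 1180 to 1650 CPM in vehicle, 1220 to 1530 in KW6002, 1280 to 2310 after cisplatin and 1300 to 1710 CPM after cotreatment. Of 8 markers, 1 was raised after cisplatin, 2 were raised and 1 was lowered after cotreatment, and 0 were called between cotreatment and cisplatin (median log2 fold change -0.23). Within the cisplatin group the sums were 1280, 1450, 2000, 2310 and 1830 CPM in tumors 1 to 5, so tumors 1 and 2 were lowest and tumor 4 was highest, as in Entpd1, whereas Adora2b was lowest of its group in tumor 4. In the cotreatment group they were 1300, 1670, 1300, 1550 and 1710 CPM in tumors 1 to 5, where Entpd1 was lowest in tumors 2 and 3, at 25.0 and 25.1 CPM. The part of macrophages in the difference of Entpd1 and Adora2b between cotreatment and cisplatin was not tested. Neutrophil markers were lowered in 2 of 5 tested after cisplatin, in 4 after cotreatment and in 4 between cotreatment and KW6002, with 0 called between cotreatment and cisplatin. Of 5 dendritic cell markers, 1 was raised after cisplatin, 2 were lowered after cotreatment, 3 were lowered in cotreated against KW6002 tumors and 1 was lower after cotreatment than after cisplatin. Their part in Entpd1, Adora2b and Adora2a was not tested. No marker of these cell types was at 0 over a whole group.

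Red blood cell markers shifted far more than any member. They summed to 25.9 to 117 CPM in vehicle and 25.6 to 50.5 CPM in KW6002 tumors, against at most 0.0613 CPM after cisplatin and 0.110 CPM after cotreatment. All 5 were lowered after cisplatin and after cotreatment, with 0 called between cotreatment and cisplatin, and Hbb-bt, Hba-a2 and Alas2 were at 0 over the cisplatin group and Hbb-bt and Hba-a1 over the cotreatment group. Their part in the levels of Adora2b, Nt5e and Adora2a was not tested. Among the other lists, 1 of 2 tested platelet markers and 1 of 3 tested epithelial markers were raised after cisplatin, as many after cotreatment, and 0 of 4 skeletal muscle markers and 0 of 1 skin marker were called after either, although muscle markers ranged from 1.24 to 932 CPM over the tumors.

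**Figure D4:**
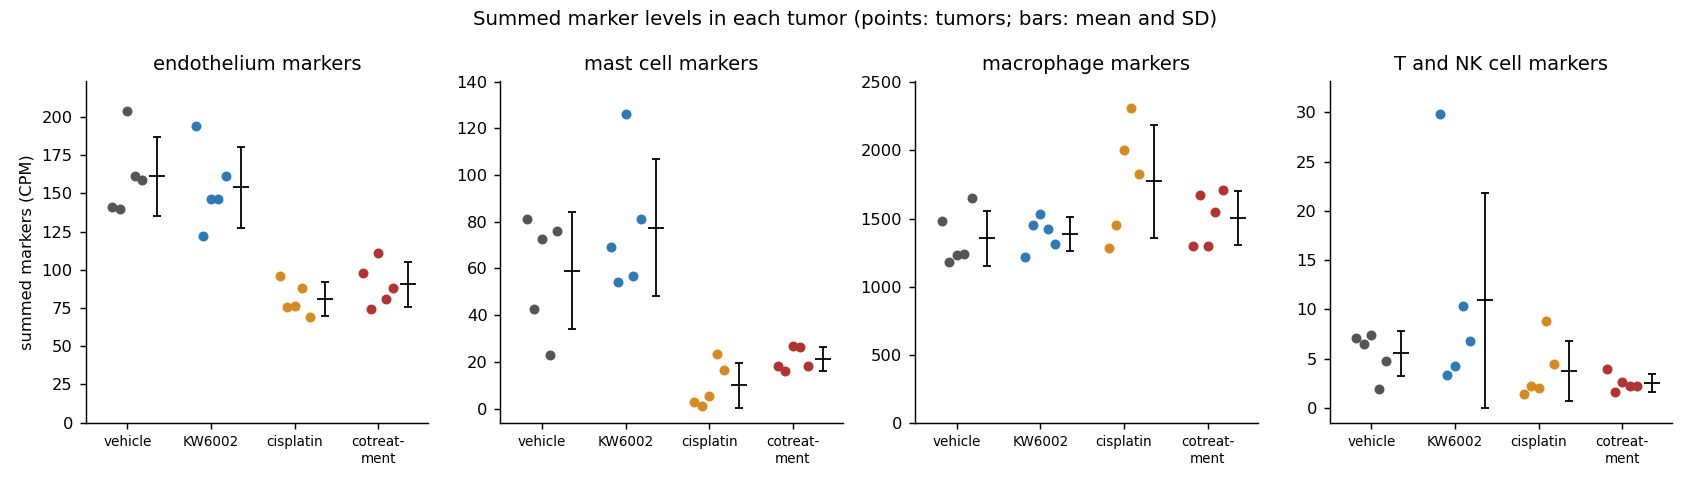
Summed CPM (vertical axes) of the markers of endothelium, mast cells, macrophages, and T and NK cells in each tumor, with 1 point per tumor and the mean and SD of 5 tumors. Endothelial markers reached at most 111 CPM in tumors given cisplatin, and KW6002 tumor 1 stands apart in the T and NK cell panel.

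Genes were listed as a description when their log2 CPM followed a called member most closely over the 20 tumors. This was done for called members with a mean of at least 100 counts, so not for Adora2a. The candidates were 12739 genes with a mean of at least 50 counts. Adora2b was followed by Serpinb9, an inhibitor of granzyme B (r = 0.958), Lcp1, an actin bundling protein of blood cells (r = 0.952), and Thap1, a zinc finger transcription factor (r = 0.951). Entpd1 was followed by Itpkb, an inositol trisphosphate kinase of lymphoid and myeloid cells (r = 0.943), Myo1f, a myosin of leukocytes (r = 0.942), and Coa7, a mitochondrial assembly factor (r = 0.922). Nt5e was followed by Rasgrp3, an exchange factor for Ras proteins (r = 0.902), Adgrf5, a receptor of endothelial cells (r = 0.898), and Itgb3, an integrin of platelets and vessels (r = 0.883). Lcp1 was at 230, 244, 182 and 131 CPM and Myo1f at 35.0, 38.0, 31.5 and 23.9 CPM in vehicle, KW6002, cisplatin and cotreated tumors. Adgrf5 was at 44.4, 38.6, 16.6 and 22.0 CPM. Because the 20 points hold 4 groups, these values also reflect differences between groups.

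The wider purine pathway was followed in 76 further genes, of which 63 were tested. Cisplatin raised 11 and lowered 8 of them, where 6.01% of all genes were raised and 4.57% lowered. Cotreatment raised 13 and lowered 10 against vehicle (13.1% and 10.4% of all genes) and raised 12 and lowered 8 against KW6002 (12.6% and 10.7%). Against cisplatin, 4 were raised and 1 was lowered after cotreatment (2.29% and 1.71%). KW6002 alone and the interaction called 0. The median log2 fold change of the 63 was -0.02, -0.07, -0.09 and -0.02 in these 4 comparisons in the order given. With cisplatin tumors 4 and 5 left out, 7 were raised and 6 lowered after cisplatin (9.35% of all genes called). Of the calls after cisplatin, 9 were lost and 3 gained. Between cotreatment and cisplatin, 7 were then raised and 1 lowered (3.42% of all genes called), with 3 lost and 6 gained. The 15 genes named are those called with the lowest adjusted P in any comparison.

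Among 7 tested surface enzymes that split nucleotides, 1 was raised and 2 were lowered after cisplatin (6.01% and 4.57% of all genes). The counts were the same after cotreatment (13.1% and 10.4% of all genes). With cisplatin tumors 4 and 5 left out, 1 was raised and 4 lowered after cisplatin (9.35% of all genes called), with 2 calls gained. Between cotreatment and cisplatin, 0 were called with all tumors. In that comparison, 3 were raised and 1 was lowered without cisplatin tumors 4 and 5 (3.42% of all genes called). Acpp, an acid phosphatase that can release adenosine from AMP, was at 126 ± 13.3 CPM in vehicle, 126 ± 14.5 in KW6002, 60.3 ± 15.3 after cisplatin and 41.6 ± 9.87 CPM after cotreatment. No tumor of either cisplatin group reached the vehicle range of 112 to 148 CPM. Acpp fell by 1.07 on the log2 scale after cisplatin (adjusted P = 0.000356) and by 1.60 after cotreatment (adjusted P = 1.80e-06), and the difference between these groups was -0.53 (adjusted P = 0.0652), not called, and -0.75 (adjusted P = 0.0143), called, without cisplatin tumors 4 and 5.

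Of 7 tested enzymes that form adenosine inside cells, Nt5c2, a cytosolic nucleotidase that prefers IMP and GMP, rose from 71.4 ± 2.53 to 112 ± 15.5 CPM after cotreatment (log2 fold change 0.65, adjusted P = 1.65e-06). It was also higher after cotreatment than after cisplatin, at 87.5 ± 6.13 CPM (log2 fold change 0.36, adjusted P = 0.00713), and at 0.30 without cisplatin tumors 4 and 5 that difference was under the fold limit. Nt5c, a deoxynucleotidase, was raised after cisplatin (0.37) and Ahcyl2, a relative of the enzyme that splits S-adenosylhomocysteine, was lowered after cisplatin (-0.34, and -0.23 and not called without cisplatin tumors 4 and 5) and cotreatment (-0.45). Among 11 clearing and salvage enzymes, 4 were raised after cisplatin and 0 lowered (6.01% and 4.57% of all genes), and after cotreatment 4 were raised and 1, Mtap, lowered (13.1% and 10.4% of all genes). The 4 raised were Ampd1, Ampd3, Xdh and Gda in both, and with cisplatin tumors 4 and 5 left out 1 of them, Xdh, was called after cisplatin.

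Ampd1, the AMP deaminase of skeletal muscle, is named here after its values were seen. It averaged 0.160 CPM in vehicle, 0.297 in KW6002, 1.42 after cisplatin and 2.95 CPM after cotreatment, with log2 fold changes of 3.11 (adjusted P = 0.0266) and 4.17 (adjusted P = 0.00155). Summed muscle markers were at 118, 1.24, 220, 7.33 and 167 CPM in cisplatin tumors 1 to 5 and at 12, 1.85, 52.8, 932 and 1.56 CPM in cotreated tumors 1 to 5, with median log2 fold changes of 3.28 and 4.19. The part of muscle in Ampd1 was not tested.

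Xdh, the xanthine oxidoreductase that makes uric acid, was at 128 ± 12.8, 133 ± 14.1, 270 ± 74.4 and 430 ± 118 CPM in vehicle, KW6002, cisplatin and cotreated tumors. Its log2 fold change was 1.07 after cisplatin (adjusted P = 0.000623), 1.74 after cotreatment (adjusted P = 1.58e-06) and 0.67 between them (adjusted P = 0.0314). Ampd3, an AMP deaminase, rose from 25.1 ± 3.51 to 56.6 ± 28.6 CPM after cisplatin and to 73.2 ± 26.4 CPM after cotreatment, and Gda, the guanine deaminase, from 76.5 ± 9.45 to 99.8 ± 24.4 and 113 ± 8.12 CPM. Without cisplatin tumors 4 and 5 neither was called after cisplatin (0.55 for Ampd3 and 0.13 for Gda on the log2 scale), and both were higher after cotreatment than after cisplatin (1.01 and 0.44). Mtap, which recovers adenine from methylthioadenosine, fell from 167 ± 12.5 to 133 ± 3.77 CPM after cotreatment. In the fit without cisplatin tumors 4 and 5, its log2 fold change after cotreatment was -0.31, under the fold limit and not called. The 4 tested nucleoside transporters and release channels had 0 called.

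**Figure D5:**
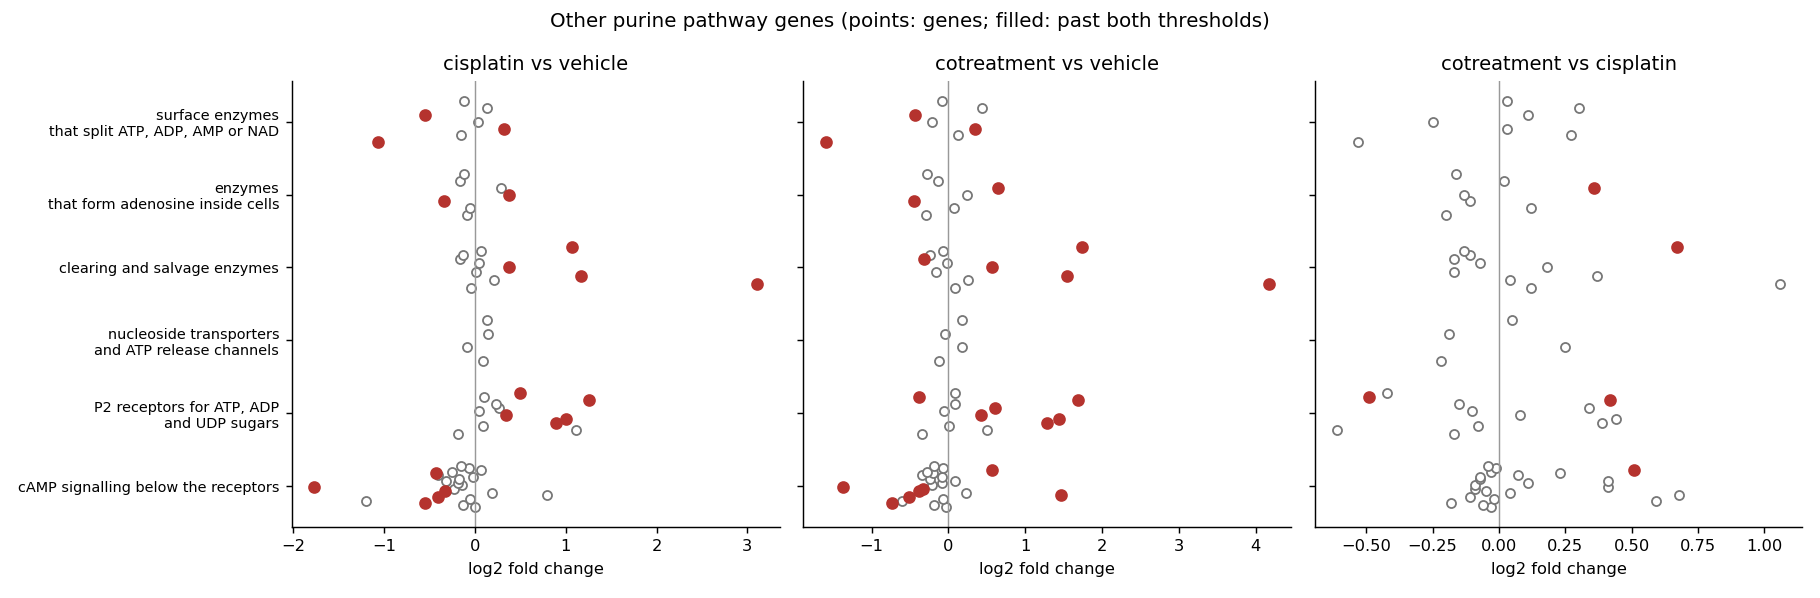
Log2 fold change (horizontal axes) of the 63 tested genes of the wider purine pathway, grouped by role, in 3 comparisons, with filled points for genes past both thresholds. In the comparisons with vehicle, the raised genes are mostly in the clearing and salvage group and among the P2 receptors, and the lowered ones include the surface enzyme Acpp and adenylyl cyclases.

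P2 receptors sense ATP, ADP and UDP sugars before these are broken down. Of 12 tested, 5 were raised and 0 lowered after cisplatin (6.01% and 4.57% of all genes). After cotreatment, 5 were raised and 1 lowered (13.1% and 10.4% of all genes). With cisplatin tumors 4 and 5 left out, 3 were raised and 0 lowered after cisplatin (9.35% of all genes called), with 2 calls lost. P2ry14, a receptor for UDP-glucose, was at 4.56 ± 0.287 CPM in vehicle, 11 ± 0.839 after cisplatin and 14.7 ± 2.66 CPM after cotreatment. Its groups did not overlap with vehicle, and it was higher after cotreatment than after cisplatin (log2 fold change 0.42, adjusted P = 0.0390, and 0.38 with adjusted P = 0.133 without cisplatin tumors 4 and 5). P2rx7, the receptor that opens at high ATP, rose from 24.3 ± 1.5 to 30.7 ± 4.77 CPM after cisplatin and 32.4 ± 2.86 CPM after cotreatment. The weak genes P2rx6 and P2rx5 rose to 2.08 ± 0.859 and 0.852 ± 0.270 CPM after cisplatin, from 1.04 ± 0.201 and 0.458 ± 0.210 CPM in vehicle, although P2rx6 was not called without cisplatin tumors 4 and 5 (0.65, adjusted P = 0.0901).

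Below the receptors, 22 genes of cyclic AMP signaling were tested, with 5 lowered and 0 raised after cisplatin (4.57% and 6.01% of all genes). After cotreatment, 5 were lowered and 2 raised (10.4% and 13.1% of all genes). With cisplatin tumors 4 and 5 left out, 2 were lowered and 0 raised after cisplatin (9.35% of all genes called), with 3 calls lost. Adcy7, an adenylyl cyclase of blood cells, was at 210 ± 15.4 CPM in vehicle, 158 ± 16.1 after cisplatin and 146 ± 21.3 CPM after cotreatment, and was lowered by -0.41 (adjusted P = 0.00251) and -0.52 (adjusted P = 9.57e-05), the former just under the fold limit without cisplatin tumors 4 and 5. Adcy4, another cyclase, was at 4.43 ± 0.946, 3.03 ± 0.858 and 2.67 ± 0.309 CPM in the same groups and was lowered in both. Prkacb, a catalytic subunit of protein kinase A, was at 231 ± 10.2 CPM in vehicle, 234 ± 7.38 in KW6002, 242 ± 21.1 after cisplatin and 344 ± 39.9 CPM after cotreatment. All cotreated tumors lay above every other tumor. In both groups given cisplatin, Prkacb was higher in the earlier run of library codes. Cotreated tumors were at 360 to 387 CPM there and at 300 and 303 CPM in the later run. Cisplatin tumors were at 255 and 272 CPM against 224 to 233 CPM. Vehicle tumor 1, of the earlier run, was the lowest of its group at 220 CPM. The part of the run in the wider list was not tested. Prkacb was higher after cotreatment than after cisplatin by a log2 fold change of 0.51 (adjusted P = 0.000723), and cisplatin alone gave 0.07 (adjusted P = 0.555).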

How the data were processed

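LLC1 tumors from 4 groups of 5 were compared by RNA sequencing. The authors deposited raw counts per Ensembl gene, made from stranded, poly(A)-selected, single-end libraries aligned to mm10 (GRCm38) with STAR and counted with HTSeq 0.6.1p1, per the labels and the study's methods. The strand option of the counting is not given in the sources used here. Groups came from the sample titles. That of vehicle tumor 1 names the vehicle once and those of the other 4 name it repeatedly, and they were taken as 1 group of 5. Counts were 28.4 to 41 M per tumor, without molecular identifiers, so precision refers to the spread between tumors. No count column was left unused (0). Annotation matched 35142 of 35226 genes.

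Counts were scaled by TMM, filtered with filterByExpr, and tested with edgeR 4.0.16 in R 4.3.3 (quasi-likelihood F-test, robust, 4 group means, all 20 tumors), with Benjamini-Hochberg adjustment over 16665 genes. Tests were two-sided. A call needed an adjusted P under 0.05 and an absolute log2 fold change of at least 0.32, which are thresholds the study applied. CPM values used TMM-scaled library sizes, and log2 CPM for correlations a prior count of 2. Levels per kilobase used the union of annotated exons. No pair of replicates was as close as counting noise. The procedure was tested on simulated data.

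The members, the wider pathway list, the marker lists (macrophage, neutrophil, mast cell, T and NK cell, B cell, dendritic cell, endothelium, fibroblast, red blood cell, platelet, skeletal muscle, fat, skin epidermis, epithelium and lung epithelium) and the tests were chosen with earlier results of these data known. Named genes were the 10 members, at most 15 called genes of the wider list with the smallest adjusted P, and for each called member with a mean of at least 100 counts the 3 genes most correlated with it. Alternatives were DESeq2 1.42.0, limma voom 3.58.1, 2 other scalings, 2 other filters on low counts, no fold limit, a test against the fold limit, fits of the compared groups alone, the runs of library codes, a block for the replicate number, and leaving out each tumor. Leaving out cisplatin tumors 4 and 5 together was added after the data were seen.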

Additional observations from a re-analysis of the deposited data

Results flagged for a closer look

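In 7 of the 40 sets of 5 tumors formed by the 10 genes and 4 groups, 1 tumor lay far from the other 4, meaning that its gap to the nearest other tumor divided by the range of the group was above 0.71. Chance gives about 1 in 20 such sets where values follow a normal distribution and the sets are independent. Weak genes such as Adora1 have skewed counts and the sets share libraries, so the 7 cannot be set against that share. Adora1 was far above its group in vehicle tumor 2 (ratio 0.988, 2.88 CPM), KW6002 tumor 1 (ratio 0.805, 1.18 CPM) and cotreated tumor 1 (ratio 0.765, 0.367 CPM). Adora2a was high in KW6002 tumor 1 (ratio 0.822, 1.49 CPM) and low in cotreated tumor 2 (ratio 0.908, 0.110 CPM, 4 counts). Nt5e was high in KW6002 tumor 1 (ratio 0.712, 14.4 CPM) and in cisplatin tumor 1 (ratio 0.888, 10.5 CPM). KW6002 tumor 1 thus accounts for 3 of the 7. Fat cell markers were also highest of their groups in the 3 tumors named for Adora1, and lymphocyte markers in KW6002 tumor 1.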

How the results depend on the processing

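Of 1779 values recomputed under the alternatives, 0 called values changed sign, 25 lost and 13 gained a call, and 47 values that were never called changed sign. The number of members called moved by more than 1.5 times in these cases. A test against the fold limit itself asks for more than that limit. It called 0 members after cisplatin (2.68% of all genes) and 1, Adora2b, after cotreatment (9.95% of all genes). Between cotreatment and cisplatin it called 0 members (0.168% of all genes). Between cotreatment and cisplatin, 0 were called when only these groups were fitted (1.35% of all genes), 1 with the run of library codes as a term (3.42%), 1 in the earlier run, 0 in the later run and 1 with cisplatin tumors 4 and 5 left out (3.42%, chosen after seeing the data), and leaving out 1 tumor at a time gave 0 to 2. That count was 0 without cisplatin tumor 3 or cotreated tumor 2 or 3, and 1 without cisplatin tumor 4 or cotreated tumor 1. DESeq2 called 1 member in the interaction. The causes of these changes were not tested, beyond fewer tumors or a stricter test by construction. With the replicate number as a block (replicate block), the numbers of members called were as without it. They were 0 after KW6002 (0% of all genes), 2 after cisplatin (9.66%) and 4 after cotreatment (22.6%). They were 2 between cotreatment and cisplatin (3.50%), 3 between cotreatment and KW6002 (22.6%) and 0 in the interaction (0%). Tumors share only a number: deviations of same-numbered tumors correlated above 0.1 in 12 of 30 pairs (-0.39 to 0.39), and 5 of 20 tumors correlated best with their own number. Without a filter on low counts, Adora1 was not called in any comparison. Counts of 4 to 48 reads limit Adora2a, and those of 9 to 34 limit Adora3, as their intervals show.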
